A study of Mus musculus with 47 samples.

Results

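Acute loss of SUZ12 in mouse embryonic stem cells was read from 6 of the 47 RNA libraries of the series: 3 of SUZ12 degron stem cells with auxin and 3 of the same line untreated. They were chosen by their names in the deposited expression table, and were read beside 3 auxin and 3 untreated libraries of an untagged stem cell line. The SUZ12 cells with auxin were C57BL/6 cells of genotype SUZ12-AID, Tir1, given 50 µM indole-3-acetic acid, an auxin, for 12 hours. The untreated SUZ12 cells had the same genotype and no auxin. The untagged cells had the Tir1 background without a degron, with the same auxin treatment or untreated. All groups grew without serum in N2B27 medium with leukaemia inhibitory factor at 100 U per mL, the GSK3 inhibitor CHIR99021 at 3 µM and the MEK inhibitor PD0325901 at 1 µM, conditions that hold stem cells in the naive state and damp ERK signalling in every library, controls included. Tir1 is a F-box protein from plants that, with auxin bound, sends proteins carrying the AID degron to the proteasome. Whether each line is 1 clone is not given here. Each genotype was a single line, and the SUZ12 protein itself was not measured in these files.

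SUZ12 is a core subunit of Polycomb repressive complex 2 (PRC2), together with EED and the methyltransferases EZH1 or EZH2. PRC2 methylates lysine 27 of histone H3, chiefly at CpG-rich promoters of developmental genes that stem cells keep silent or nearly so. Polycomb repressive complex 1 (PRC1) contains CBX proteins that bind this mark. Stem cells without PRC2 are known to self-renew, and are known for failing in differentiation.

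Levels are TPM as the authors deposited them, transcript abundances scaled by gene length and library total, and every change is a log2 fold change ± SE of auxin against untreated cells on log2(TPM + 0.5), a scale that understates the change of genes near 0. A gene was called at a limma two-sided adjusted p under 0.05 (Benjamini-Hochberg) over 15104 genes tested. The SUZ12 libraries held 5.39 to 6.50 M reads with auxin and 7.30 to 8.71 M untreated, and the untagged ones 5.42 to 6.17 M with auxin and 5.27 to 5.50 M untreated. Depth thus moved with treatment in the SUZ12 line, and its part in the results was not tested. Between 13526 and 13592 genes reached 1 TPM in SUZ12 cells with auxin, against 13071 to 13174 in untreated SUZ12 cells and 13092 to 13297 over the 6 untagged libraries. All 47 libraries carry the name of 1 sequencing run. Untreated SUZ12 replicate 2 stood furthest from its group: chi-square per degree of freedom, comparing counts over genes, was 1.79 and 2.03 against replicates 1 and 3 and 1.21 between the other two, and ribosomal protein genes took 19.5% of its TPM. The markers matched the stem cell label: Pou5f1 lay between 1518 and 1806 TPM, Nanog between 697 and 789 TPM and Sox2 between 392 and 428 TPM in the 6 SUZ12 libraries. The fibroblast gene Dcn was at 0 in all 12 SUZ12 and untagged libraries. Neurog2 and Mesp1, which mark neuronal precursors and early mesoderm, had 2 and 4 reads over the 6 SUZ12 libraries. These were the lowest members of their marker lists, and others were detected. In the 6 SUZ12 libraries the neural marker Tubb3 lay between 239.6 and 321.8 TPM. Over these libraries the neural markers Nes and Pax6 had 1241 and 270 reads and the mesoderm marker T 193. The fibroblast markers Col1a1 and Thy1 had 115 and 72 reads.

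Promoter sequences of 4 genes on which the results turn are given first: Gsc and Dazl, of the developmental and germ line groups, Sh3bgrl2, whose change differed most stably from that of untagged cells, and Pramel6, which fell furthest. Each is the 250 bases before the RefSeq start on GRCm38.p6, written 5′ to 3′ on the gene's strand, with every CG in capitals.
Gsc (chr12:104473237-104473486, minus strand): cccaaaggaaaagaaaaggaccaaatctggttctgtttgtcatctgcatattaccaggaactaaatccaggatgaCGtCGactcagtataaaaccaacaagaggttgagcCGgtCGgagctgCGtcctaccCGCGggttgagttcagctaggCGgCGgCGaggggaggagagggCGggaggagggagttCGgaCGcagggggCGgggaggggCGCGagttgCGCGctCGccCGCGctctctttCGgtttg
Dazl (chr17:50293621-50293870, minus strand): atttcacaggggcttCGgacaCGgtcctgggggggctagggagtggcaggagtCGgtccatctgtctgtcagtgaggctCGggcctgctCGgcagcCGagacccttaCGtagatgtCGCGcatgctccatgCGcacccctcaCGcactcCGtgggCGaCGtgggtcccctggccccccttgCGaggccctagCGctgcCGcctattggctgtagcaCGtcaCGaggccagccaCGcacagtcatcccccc
Sh3bgrl2 (chr9:83548088-83548337, plus strand): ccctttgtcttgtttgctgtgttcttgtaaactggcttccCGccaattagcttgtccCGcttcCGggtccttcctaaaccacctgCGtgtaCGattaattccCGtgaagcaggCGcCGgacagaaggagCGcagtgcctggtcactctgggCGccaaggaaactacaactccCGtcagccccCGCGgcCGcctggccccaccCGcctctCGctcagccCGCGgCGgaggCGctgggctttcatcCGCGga
Pramel6 (chr2:87506315-87506564, plus strand): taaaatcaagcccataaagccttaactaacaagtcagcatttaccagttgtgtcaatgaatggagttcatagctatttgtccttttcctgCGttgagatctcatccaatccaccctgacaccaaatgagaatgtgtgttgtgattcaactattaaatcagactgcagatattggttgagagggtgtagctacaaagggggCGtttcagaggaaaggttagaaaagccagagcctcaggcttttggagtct
Those of Gsc and Sh3bgrl2 held 22 CG each, a count reached by 14.8% of the 32851 promoters in the table, and that of Dazl held 20, reached by 17.9%. The promoter of Pramel6 held 2, and 81.2% of promoters held at least as many; the median was 6. The E-box CACGTG, which reads the same on both strands, was in none of the 4 windows and in 6.02% of all promoters. Of the genes called higher 676, or 76.0%, had an entry, as had 72.3% of all genes tested, and CG content was not compared over the whole set. The 4 promoters were ranked against all those in the table, and not against those of genes tested. Whether CG content went with the direction of change was not tested.

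After 12 hours of auxin 1031 genes were called in SUZ12 cells, 6.83% of those tested: 889 were higher (5.89%) and 142 were lower (0.940%). The changes were small, with a median of 0.42 among the genes called higher and -0.24 among those called lower, and 38 genes changed at least 2-fold, 28 of them upwards. The genes called higher included homeobox and other developmental regulators, germ line genes, keratins, secreted antagonists of NODAL and WNT and PRC1 subunits, and those called lower included general pluripotency and ERK feedback genes. The same treatment of untagged cells gave 32 calls (0.212%), 9 higher (0.0596%) and 23 lower (0.152%). The direct test of the difference, the SUZ12 change minus the untagged change, called 29 genes (0.192%), 27 higher (0.179%) and 2 lower (0.0132%), with 1657 genes at an unadjusted p under 0.05. In 4060 genes, 26.9% of those tested, the 3 SUZ12 auxin libraries all lay above the 3 untreated ones, and in 802 (5.31%) all below.

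The split into higher and lower depended on the scaling. TPM fixes each library's total, and the median of all genes was 0.09 in SUZ12 cells against 0.02 in untagged cells. With median-of-ratios scaling, which sets the typical gene to no change, 1110 genes were called in SUZ12 cells, 415 higher and 695 lower, and 557 of them were among the 1031. After centring the genes of 20 length bins in each library, an alternative chosen after seeing the data, 837 were called, 303 higher and 534 lower, and 436 of them were among the 1031. Leaving out the untreated SUZ12 replicate 2 left 351 calls, and leaving out auxin replicate 1 or 2 left 381 or 503; without the other untreated libraries, replicates 1 and 3, 587 and 631 were called. The difference test called 31 genes with median-of-ratios scaling, 13 higher and 18 lower, and 18 with length centring, 9 higher and 9 lower. Without untreated SUZ12 replicate 2 it called 0 genes, with 1332 at an unadjusted p under 0.05. Without any 1 of the other 11 SUZ12 and untagged libraries it called 2 to 12, except for 21 without untagged auxin replicate 1. In all, 171 genes called in SUZ12 cells are covered by the naming rule or the lists, and 74 of them kept their call under each of 14 alternatives, 8 settings and 6 fits that each left out a SUZ12 library. Genes named below as higher or lower did so too, unless stated otherwise.

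The genes whose change in SUZ12 cells differed from that in untagged cells were led by Sh3bgrl2, which encodes a small glutamate-rich protein of the SH3BGR family. Its level was 22.1, 23.04 and 22.4 TPM in SUZ12 cells with auxin, against 13.9, 11.6 and 12.3 TPM in untreated SUZ12 cells. In untagged cells Sh3bgrl2 had 14.2, 13.1 and 14.1 TPM with auxin, against 14.9, 15.2 and 14.1 TPM untreated. All 3 SUZ12 auxin libraries were above the other 9 libraries. The change was 0.82 ± 0.10 in SUZ12 cells (adjusted p = 3.94e-05) and -0.09 ± 0.10 in untagged cells, and the difference 0.91 ± 0.13 (adjusted p = 0.0149). It was called under 8 of 8 settings and in 11 of 12 fits without a library. Dpysl5, a collapsin response mediator of growing neurites, and Bag3, an HSP70 co-chaperone, were also called under 8 of 8 settings, and in 6 of 12 fits without a library. The other 26 were called in 3 to 7 of 8 settings and in 0 to 6 of 12 such fits. Bag3 stood at 24.6, 25.9 and 24.9 TPM in SUZ12 cells with auxin, against 14.3, 13.7 and 13.8 TPM untreated, a change of 0.83 ± 0.09, while the untagged change was 0.11 ± 0.09 and the difference 0.71 ± 0.12 (adjusted p = 0.0214). The SUZ12 auxin libraries exceeded all other libraries for Bag3 too, and the untreated SUZ12 ones lay below all the untagged ones.

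**Figure D1:**
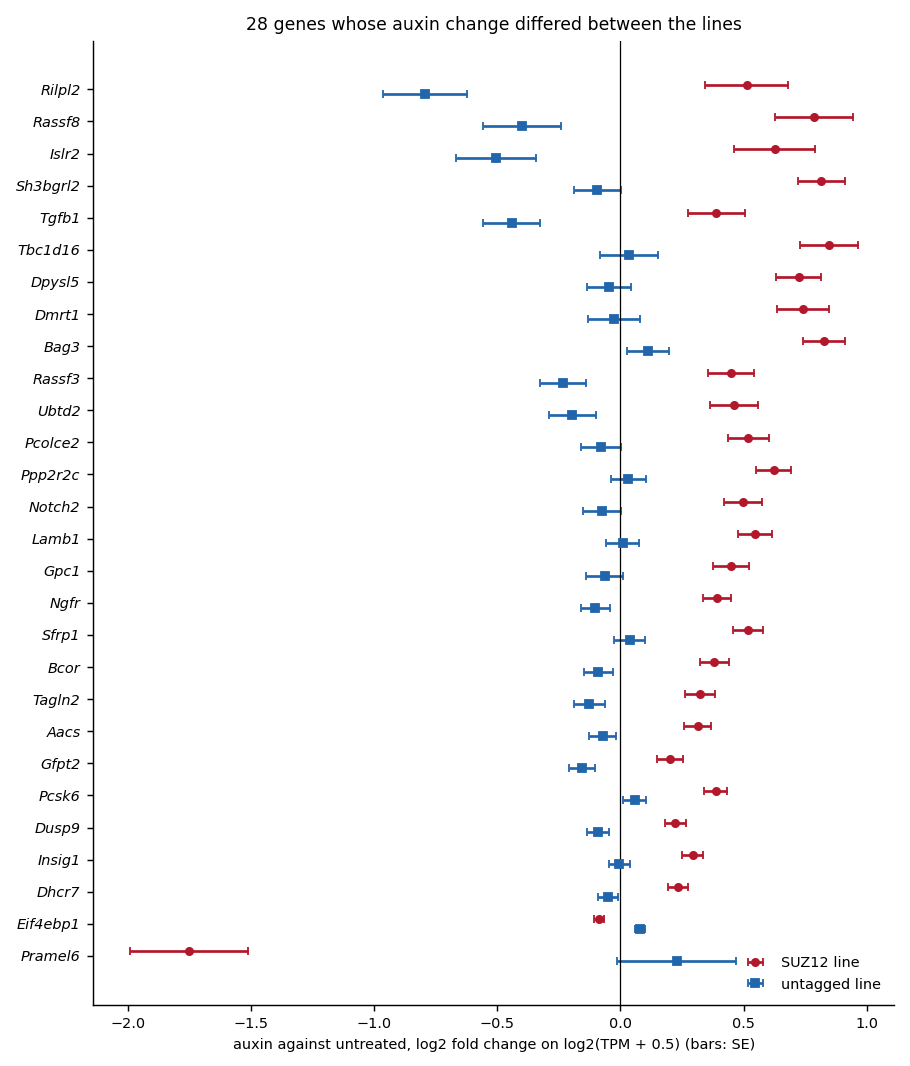
Change with auxin (x axis, log2 fold change with SE bars) of 28 of the 29 genes called in the difference test, in the SUZ12 line (red circles) and the untagged line (blue squares), n = 3 libraries a group. In 26 genes the red point lies right of 0, and only Pramel6 and Eif4ebp1 have it on the left.

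By role, these 29 genes included receptors and surface proteins, secreted proteins, signalling and cytoskeletal proteins, and metabolic enzymes. Among receptors and surface proteins, Ngfr, the low-affinity neurotrophin receptor, had 124, 121 and 119 TPM in SUZ12 cells with auxin, against 90.9, 91.97 and 93.95 TPM untreated (change 0.39 ± 0.06, difference 0.49 ± 0.08, adjusted p of the difference 0.0214). Notch2, a Notch receptor, changed by 0.50 ± 0.08 in SUZ12 cells and -0.08 ± 0.08 in untagged cells, and the heparan sulfate proteoglycan gene Gpc1 by 0.45 ± 0.07 and -0.06 ± 0.07. The difference in Gpc1 was called in 4 of 8 settings and 0 of 12 fits without a library, and that in Notch2 in 6 and 3. Their SUZ12 auxin libraries lay above all untreated SUZ12 libraries, as they did for each of the 27 genes with a higher difference. These genes were chosen by a test on the same libraries, and 26.9% of all genes tested showed this order. Among secreted proteins, the WNT antagonist gene Sfrp1 stood at 74.7, 72.6 and 68.7 TPM in SUZ12 cells with auxin, against 51.6, 48.4 and 50.4 TPM untreated (change 0.52 ± 0.06, difference 0.48 ± 0.09). Sfrp1 in untreated SUZ12 cells lay below all 6 untagged libraries, which held 64.3, 62.2 and 60.2 TPM with auxin and 66.2, 55.1 and 61.2 TPM without. The laminin gene Lamb1 (difference 0.54 ± 0.10), Pcsk6, which encodes a convertase that processes NODAL-family ligands (0.33 ± 0.07), and the procollagen processing enhancer gene Pcolce2 (0.60 ± 0.12) followed. The difference was called in 6 of 8 settings for Lamb1 and Pcolce2 and in 5 for Pcsk6, and in 4, 1 and 1 of 12 fits without a library. Dmrt1, a transcription factor of the germ line and testis, had 27.8, 32.98 and 31.1 TPM in SUZ12 cells with auxin, against 20.8, 17.5 and 16.2 TPM untreated (change 0.74 ± 0.11). In untagged cells Dmrt1 had 20.3, 20.6 and 22.2 TPM with auxin, against 21.5, 19.97 and 22.8 TPM untreated (change -0.03 ± 0.11), and the difference was called in 6 of 8 settings and in 1 of 12 fits without a library. Bcor, a subunit of a non-canonical PRC1, changed by 0.38 ± 0.06 in SUZ12 cells and -0.09 ± 0.06 in untagged cells (difference 0.47 ± 0.08, adjusted p = 0.0276).

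In 20 of the 27 genes with a higher difference the fitted untagged change was below 0, and in 6 the 3 untagged auxin libraries all lay below the untreated ones. Of all 15104 genes tested 56.9% lay above 0 in untagged cells, and in 874 the untagged auxin libraries all lay below. Choosing genes by a high difference favours low untagged changes, so these counts do not show a response of untagged cells. Rilpl2, which encodes a protein of ciliary membrane transport, had the largest positive difference, 1.31 ± 0.24, called in 7 of 8 settings and in 1 of 12 fits without a library. Its level was 14.4, 12.4 and 14.9 TPM in SUZ12 cells with auxin, against 10.3, 9.66 and 8.86 TPM untreated. In untagged cells Rilpl2 had 6.98, 5.85 and 10.7 TPM with auxin, against 12.9, 13.2 and 14.6 TPM untreated. Neither change was called on its own (SUZ12 0.51 ± 0.17, adjusted p = 0.0721; untagged -0.80 ± 0.17, adjusted p = 0.0548). The growth factor gene Tgfb1 was similar, with 0.39 ± 0.12 in SUZ12 cells and -0.44 ± 0.12 in untagged cells, and its SUZ12 call was lost under 5 of 8 settings and in 6 of 6 fits without a library. Islr2, an axon guidance protein gene, changed by 0.63 ± 0.16 in SUZ12 cells, and by -0.51 ± 0.16 in untagged cells. Its SUZ12 call was lost with median-of-ratios scaling, with length centring and in 4 of 6 fits without a library, and its difference was called in 4 of 8 settings and 0 of 12 fits.

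Pramel6, which belongs to a family of PRAME-like genes expressed in naive stem cells, fell furthest. It had 1.63, 0.669 and 2.02 TPM in SUZ12 cells with auxin, against 5.72, 4.68 and 6.96 TPM untreated, from 23 and 131 reads in all. The groups did not overlap, and the untagged libraries held 4.84, 4.78 and 6.84 TPM with auxin and 4.54, 4.69 and 4.43 TPM untreated. The change was -1.75 ± 0.24 in SUZ12 cells (adjusted p = 0.000168) and 0.23 ± 0.24 in untagged cells, a difference of -1.98 ± 0.34 (adjusted p = 0.0217). Of 17 tested genes of the Pramel and two-cell-like list Pramel6 was the 1 called, and the list's median was 0.04. Related copies may share reads, since how the authors counted reads that map to several genes is not given in the sources used here. Eif4ebp1, which encodes a translation repressor that binds eIF4E, had the other negative difference (-0.17 ± 0.03), on a SUZ12 change of -0.09 ± 0.02 whose call was lost in the compared groups alone and in 4 of 6 fits without a library.

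**Figure D2:**
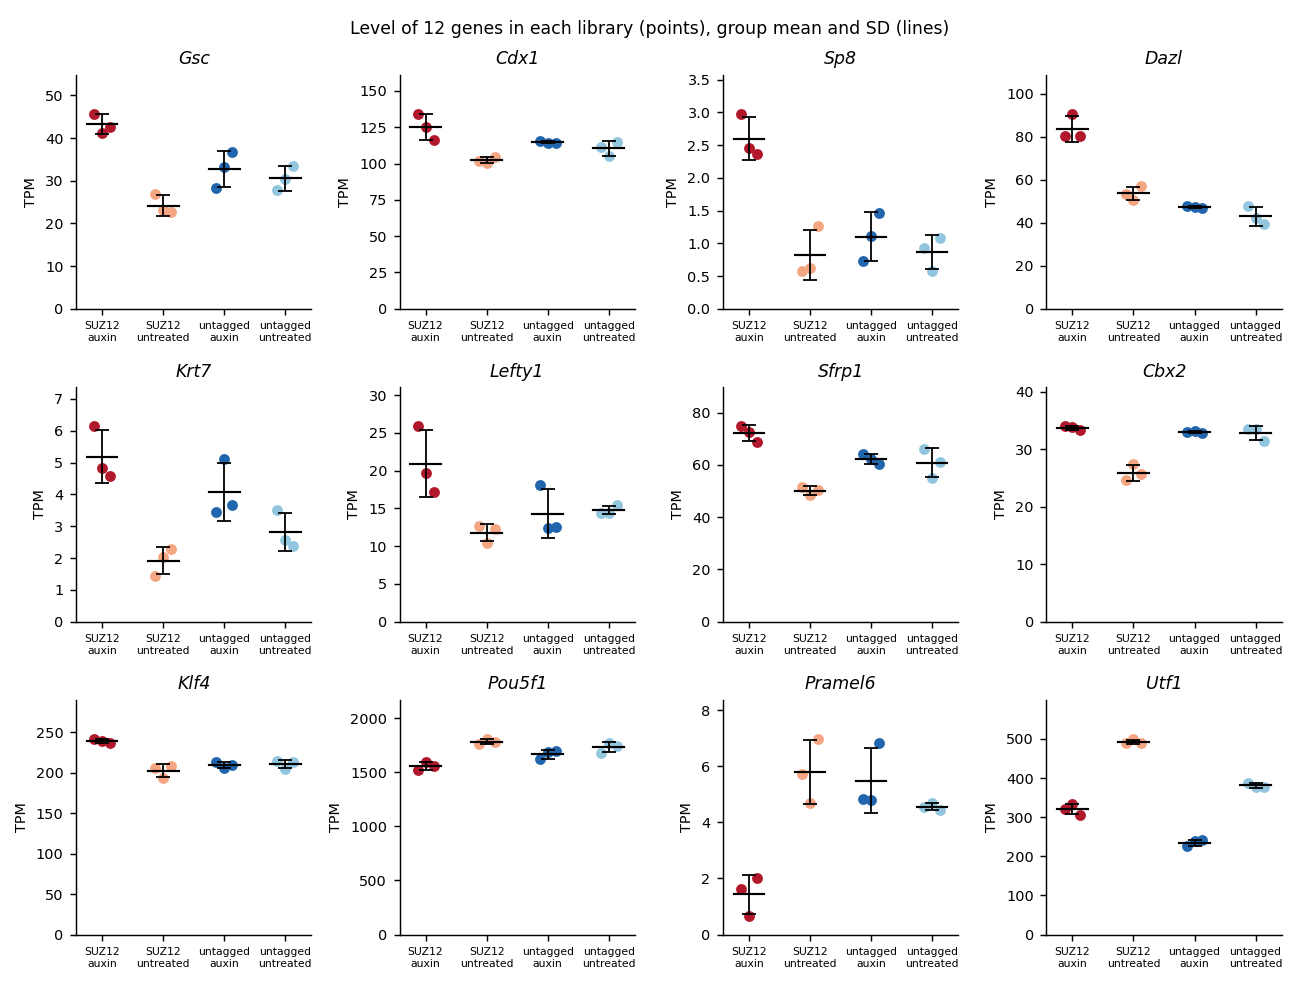
TPM (y axes, linear and starting at 0) of 12 genes in each of 3 libraries of SUZ12 cells with auxin, SUZ12 cells untreated, untagged cells with auxin and untagged cells untreated, with group means and SD. SUZ12 auxin libraries lie above the untreated SUZ12 ones for Gsc, Cdx1, Sp8, Dazl, Krt7, Lefty1, Sfrp1, Cbx2 and Klf4, and below them for Pou5f1, Pramel6 and Utf1, of which Utf1 is also lower with auxin in untagged cells.

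Developmental transcription factors, the classic PRC2 targets, were considered by family. Of 103 homeobox genes outside the Hox clusters, 51 were expressed enough to be tested in stem cells. Of these 10 were called higher (19.6%, against 5.89% of all genes) and 0 lower, with a median of 0.40 in SUZ12 cells and 0.04 in untagged cells. With median-of-ratios scaling 7 were called higher, 0 lower, and the median was 0.35. The test of the difference from untagged cells called 0 of the 51. It also called 0 in the Sox to zinc finger, T-box to Hand, Hox, germ line, epithelial, mesoderm and neural lists read below. The imprinted, WNT feedback, BMP and NODAL response, p53 response, naive and general pluripotency and ERK feedback lists had 0 such calls as well. The shares over all genes were not matched to the lists for level. Of all genes tested 71.0% lay above 0 in SUZ12 cells, 5.89% were called higher and 0.940% lower, and the shares of the lists are read against these. Counts under other settings have other baselines. Over all 15104 genes, median-of-ratios scaling called 415 higher and 695 lower, voom 1669 and 515, and length centring 303 and 534. In these lists tested members had to reach 1 TPM in at least 2 of 24 stem cell libraries, and the others are not described. The organizer gene Gsc had 45.8, 41.2 and 42.7 TPM in SUZ12 cells with auxin, against 26.97, 23.04 and 22.6 TPM untreated. In untagged cells Gsc had 28.2, 33.3 and 36.7 TPM with auxin, against 27.8, 30.4 and 33.5 TPM untreated. The SUZ12 groups did not overlap and those of untagged cells did. The change was 0.83 ± 0.15 in SUZ12 cells (adjusted p = 0.00291) and 0.09 ± 0.15 in untagged cells. Their difference, 0.73 ± 0.22, did not pass (adjusted p = 0.186). Cdx1, a caudal-type gene responsive to WNT, stood at 134, 125 and 117 TPM with auxin in SUZ12 cells, against 102, 101 and 104 TPM untreated (change 0.29 ± 0.06). The neural crest and limb factor gene Msx2 (0.95 ± 0.18), the neural crest factor gene Tlx2 (0.91 ± 0.18) and the hindlimb factor gene Pitx1 (0.97 ± 0.20) also rose. Cdx2, a trophectoderm and posterior factor gene (0.79 ± 0.20), lost its call in 3 of 6 fits without a library. Nkx1-2, a factor of the posterior embryo, and Gbx2, of the midbrain-hindbrain boundary, were called at 0.47 ± 0.13 and 0.21 ± 0.06, and lost the call in 3 and 5 of 8 settings, median-of-ratios scaling among them, and in 4 and 6 of 6 fits without a library.

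Hox genes did not pass the test in SUZ12 cells. Of 39 in the clusters 12 could be tested and 0 were called in limma, with 4 at an unadjusted p under 0.05. Limma voom on the recovered reads called 2 higher and 0 lower, where it called 1669 and 515 of all 15104 genes. Of the 12, 9 lay above 0 (75%, against 71.0% of all genes), and the median was 0.44 (untagged 0.17). The posterior gene Hoxc13 had between 3.93 and 4.43 TPM in SUZ12 cells with auxin, against 1.98, 3.22 and 2.11 TPM untreated (0.68 ± 0.23, adjusted p = 0.0766). In untagged cells Hoxc13 had 5.34, 4.70 and 6.15 TPM with auxin, against 2.82, 4.17 and 4.31 TPM untreated (0.48 ± 0.23). In both lines its auxin libraries lay above the untreated ones, which 26.9% of all genes showed in SUZ12 cells and 1365 of 15104 in untagged cells. The share that showed it in both lines was not counted.

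Other developmental regulators were read in a pair of lists. Of 39 tested Sox, Pax, bHLH and zinc finger genes 6 were called higher and 0 lower (15.4%; median 0.38, untagged 0.00). Under median-of-ratios scaling 5 were higher and 1 lower. Sp8, a limb and forebrain zinc finger gene, had 2.98, 2.45 and 2.37 TPM in SUZ12 cells with auxin, against 0.583, 0.623 and 1.26 TPM untreated, and between 0.584 and 1.47 TPM in the 6 untagged libraries. All 3 SUZ12 auxin libraries lay above the other 9, and the change was 1.26 ± 0.24 (adjusted p = 0.00318), with a difference from untagged cells of 1.04 ± 0.34 (adjusted p = 0.241). Osr2 (0.82 ± 0.19) and Olig3 (0.84 ± 0.23), regulators of mesenchyme and of dorsal neural progenitors, lost their calls in 2 and 5 of 6 fits without a library, and Zfp703 (0.65 ± 0.15) in 2. Among 23 tested T-box, Gata, Fox and Hand genes 2 were called higher (8.70%, against 5.89% of all genes) and 1 lower (4.35%), with a median of 0.53 (untagged 0.05). The blood and trophoblast factor gene Gata2 had 10.6, 9.68 and 9.25 TPM in SUZ12 cells with auxin, against 5.86, 6.04 and 6.58 TPM untreated (0.63 ± 0.14; not called without auxin replicate 1, adjusted p = 0.055). Tbx20, a heart factor gene (0.92 ± 0.26, 51 against 20 reads), lost its call with length centring and in each of the 5 fits without a library in which it could be tested, and Foxd3, a factor of pluripotent and neural crest cells, was lower (-0.38 ± 0.08; adjusted p = 0.055 without auxin replicate 1).

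Of 57 tested ligands, receptors and inhibitors of developmental signalling 7 were called higher (12.3%) and 2 lower (3.51%), with a median of 0.31 in SUZ12 cells and 0.06 in untagged cells. With median-of-ratios scaling 4 were higher and 3 lower. The NODAL antagonist genes Lefty1 and Lefty2 were both called higher. Lefty1 had 25.8, 19.7 and 17.2 TPM in SUZ12 cells with auxin, against 12.6, 10.5 and 12.2 TPM untreated (0.79 ± 0.19, adjusted p = 0.0144). Lefty2 had 40.5, 34.8 and 39.5 TPM with auxin, against 25.5, 19.99 and 25.8 TPM untreated (0.68 ± 0.17, adjusted p = 0.0205). Both lost the call without auxin replicate 1 or untreated replicate 2, and Lefty2 also without auxin replicate 3. In untagged cells they changed by -0.06 ± 0.19 and -0.05 ± 0.17, and those groups overlapped. Neither difference between the lines passed (adjusted p = 0.222 for Lefty1 and 0.251 for Lefty2). The WNT receptor gene Fzd8 (0.66 ± 0.16) and the Notch ligand genes Jag1 (0.40 ± 0.11) and Jag2 (0.44 ± 0.12) were called, but in 2, 1 and 2 of 6 fits without a library. Jag1 and Jag2 also lost the call with median-of-ratios scaling and with length centring, and Jag1 in the compared groups alone. Bmp4, a ligand of mesoderm and germ cell induction, was lower, with 2.40, 1.82 and 2.17 TPM in SUZ12 cells with auxin, against 5.65, 3.43 and 4.48 TPM untreated (-0.91 ± 0.21, adjusted p = 0.0129), and was called in 4 of 6 fits without a library. Untagged cells had 1.65, 1.93 and 2.55 TPM of Bmp4 with auxin, against 3.00, 4.08 and 3.48 TPM untreated, a change of -0.67 ± 0.21 that was not called (adjusted p = 0.384).

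Germ line genes were among those called higher. Of 54 tested germ line and meiosis genes 9 were called higher (16.7%) and 0 lower, with a median of 0.29 in SUZ12 cells and 0.11 in untagged cells. Median-of-ratios scaling gave 5 higher and 0 lower. Dazl, an RNA-binding protein gene of germ cells, had 80.2, 90.8 and 80.6 TPM in SUZ12 cells with auxin, against 53.4, 50.7 and 57.01 TPM untreated. In untagged cells Dazl had 47.9, 47.4 and 46.9 TPM with auxin, against 47.6, 42.1 and 39.2 TPM untreated. The SUZ12 groups did not overlap and all SUZ12 libraries lay above the untagged ones. The change was 0.64 ± 0.09 (adjusted p = 0.000168), and the difference from untagged cells, 0.49 ± 0.12, did not pass (adjusted p = 0.0996). Syce1, a gene of the synaptonemal complex, stood at 55.3, 53.5 and 62.3 TPM in SUZ12 cells with auxin, against 40.5, 38.3 and 37.3 TPM untreated (0.55 ± 0.10). Sohlh2, a bHLH factor of early germ cells, changed by 0.46 ± 0.07. Smc1b, a meiotic cohesin gene (0.85 ± 0.20), was called in 4 of 6 fits without a library. Ddx4, Brdt and Sycp3, of germ granules, sperm chromatin and meiotic chromosome axes, were called at 0.42 ± 0.12, 0.55 ± 0.15 and 0.76 ± 0.23. They lost the call in 3, 3 and 5 of 8 settings, median-of-ratios scaling among them, and in 6, 6 and 5 of 6 fits without a library.

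Simple epithelial and trophectoderm genes were called higher in 8 of 23 tested (34.8%) and lower in 0, with a median of 0.30 in SUZ12 cells and 0.02 in untagged cells. With median-of-ratios scaling 6 were higher and 0 lower. The desmosome gene Dsp had 6.95, 7.24 and 6.24 TPM in SUZ12 cells with auxin, against 3.59, 3.56 and 3.48 TPM untreated. In untagged cells Dsp had 5.34, 5.00 and 6.29 TPM with auxin, against 4.64, 4.72 and 5.68 TPM untreated. The SUZ12 groups did not overlap (0.85 ± 0.12, adjusted p = 0.000281), and untreated SUZ12 cells lay lowest of the 4 groups. The keratin genes Krt7 (1.24 ± 0.28) and Krt18 (0.93 ± 0.21) rose, and were called in 4 and 5 of 6 fits without a library. The summed level of 4 trophectoderm defining markers, Cdx2, Elf5, Eomes and Gata3, was 8.80 to 10.2 TPM in SUZ12 cells with auxin, against 6.53 to 7.06 TPM untreated, and 7.13 to 7.81 TPM in untagged cells with auxin, against 8.30 to 10.97 TPM untreated.

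Marker lists of endoderm together with primitive endoderm, of mesoderm and of neural cells also held genes called higher. Primitive endoderm and endoderm had 4 of 15 tested genes called higher (26.7%) and 0 lower, mesoderm 3 of 17 higher (17.6%) and 1 lower, and neural progenitors and neurons 3 of 26 higher (11.5%) and 0 lower. Scaled by median of ratios, these counts were 3 higher and 1 lower for endoderm, 2 and 1 for mesoderm and 2 and 1 for the neural list. Called endoderm genes were the basement membrane genes Lamb1 (0.55 ± 0.07), Col4a2 (0.81 ± 0.16) and Lama1 (0.37 ± 0.09; lost with median-of-ratios scaling, with length centring and in 3 of 6 fits without a library) and the chemokine receptor gene Cxcr4 (1.21 ± 0.27; called in 4 of 6 fits without a library). In the neural list the intermediate filament genes Nefl (0.43 ± 0.06) and Nes (0.45 ± 0.09) and the neuronal tubulin gene Tubb3 (0.29 ± 0.05; lost with median-of-ratios scaling) were called. Beside these, the summed level of the 5 mesoderm defining markers was 5.08 to 7.18 TPM in SUZ12 cells with auxin, against 2.66 to 4.18 TPM untreated. That of the 5 primitive endoderm ones was 5.86 to 6.01 against 3.64 to 4.03 TPM, and that of the 5 neural ones, nearly all Tubb3, 297 to 340.1 against 252 to 269 TPM. Of the primitive endoderm markers Gata6, Sox17 and Foxa2 were too low to be tested, with 27, 55 and 14 reads over the 6 SUZ12 libraries. In untagged cells the mesoderm sum was 3.35 to 3.86 TPM with auxin, against 2.51 to 4.07 TPM untreated. There the primitive endoderm sum was 4.55 to 6.05 against 4.15 to 5.34 TPM, and the neural sum was 269.7 to 277 against 248 to 265 TPM. The summed level of the 8 stem cell defining markers was 6281 to 6522 TPM in SUZ12 cells with auxin, against 6725 to 6972 TPM untreated, with no overlap. In untagged cells this sum was 6883 to 6947 TPM with auxin, against 6852 to 7016 TPM untreated, and these groups overlapped. The 8 did not fall as a group in SUZ12 cells, where 4 lay above 0. The 2 most abundant, Pou5f1 and Dppa5a, were called lower, and Klf4 and Nanog higher. Dppa5a had 2714 to 2929 TPM with auxin, against 3032 to 3245 TPM untreated (called in 4 of 6 fits without a library). Of 6 tested fibroblast genes 2 were called higher (33.3%), the receptor gene Pdgfrb (0.86 ± 0.17) and the collagen gene Col5a1 (0.61 ± 0.16; lost with length centring and called in 2 of 6 fits without a library). The summed level of 5 defining fibroblast markers was 3.37 to 4.14 TPM in SUZ12 cells with auxin, against 2.34 to 3.59 TPM untreated. From bulk RNA, more RNA per cell and more cells of another type cannot be told apart, and the part of such cells was not tested.

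Among Polycomb genes themselves, the core and accessory subunits of PRC2 gave 0 calls in limma among 6 and 6 tested genes, with 1 and 2 at an unadjusted p under 0.05. In limma voom 1 core gene was called higher and 0 lower, and 1 accessory gene was called higher and 1 lower. The accessory subunit gene Jarid2 (-0.08 ± 0.05, adjusted p = 0.323) was called lower in voom, with median-of-ratios scaling and with length centring, and the core gene Rbbp4 (0.00 ± 0.04) with length centring. Suz12 RNA was 323, 314 and 301 TPM in SUZ12 cells with auxin, against 299, 251 and 304 TPM untreated. In untagged cells Suz12 had 170.5, 152 and 167 TPM with auxin, against 148, 143 and 143 TPM untreated. The degron line thus had more Suz12 RNA than the untagged line in every library. Auxin, which acts on the protein, left overlapping groups (0.14 ± 0.09, adjusted p = 0.35), so that this transcript does not check the loss of the protein. The methyltransferase gene Ezh2 stood at 158, 153 and 152 TPM with auxin in SUZ12 cells, against 141, 129 and 139.9 TPM untreated (0.18 ± 0.06, adjusted p = 0.066). PRC1 genes gave 5 higher (20.8%) and 1 lower of 24 tested, with a median of 0.15 in SUZ12 cells and 0.00 in untagged cells. With median-of-ratios scaling 4 were higher and 2 lower. Cbx2, a CBX reader of the PRC2 mark, had 33.96, 33.9 and 33.3 TPM in SUZ12 cells with auxin, against 24.6, 27.4 and 25.7 TPM untreated (0.38 ± 0.07, adjusted p = 0.00242). Its untagged groups overlapped, at 32.96, 33.2 and 32.9 TPM with auxin and 33.6, 33.6 and 31.5 TPM untreated, and lay above the untreated SUZ12 libraries. The difference for Cbx2, 0.37 ± 0.10, did not pass (adjusted p = 0.123). Bmi1, a PCGF subunit (0.63 ± 0.13), and Bcor (0.38 ± 0.06) rose, and L3mbtl2, of a non-canonical PRC1, fell (-0.19 ± 0.04).

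Sterol and lipid synthesis was the list with the most calls. Of 32 tested genes 13 were called higher (40.6%) and 0 lower, but the median was 0.13 against 0.09 for all genes, and with median-of-ratios scaling 6 were higher. Insig1, which holds the sterol sensor in the endoplasmic reticulum, had 222, 209 and 196 TPM in SUZ12 cells with auxin, against 169.7, 171 and 171 TPM untreated (0.29 ± 0.04; difference 0.30 ± 0.06, adjusted p = 0.0421). Its untagged groups overlapped, at 207, 197 and 196 TPM with auxin and 209.7, 201 and 191 TPM untreated. Dhcr7, the last enzyme of cholesterol synthesis (0.23 ± 0.04, difference 0.28 ± 0.06), and the desaturase gene Scd2 (0.25 ± 0.04) were higher. Idi1, an isoprenoid isomerase gene (0.42 ± 0.10), was called in 4 of 6 fits without a library. The differences in Insig1 and Dhcr7 were each called in 4 of 8 settings, and in 3 and 1 of 12 fits without a library.

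Imprinted genes had 6 of 34 tested genes called higher (17.6%) and 0 lower, with a median of 0.17 in SUZ12 cells and -0.02 in untagged cells. Median-of-ratios scaling left 4 higher and 0 lower. The test of the difference from untagged cells called 0 of the 34. Plagl1, a growth-regulating zinc finger gene, had 46.6, 41.8 and 38.8 TPM in SUZ12 cells with auxin, against 24.1, 22.5 and 27.1 TPM untreated (0.78 ± 0.10, adjusted p = 0.000146). In untagged cells Plagl1 had 23.3, 22.9 and 24.5 TPM with auxin, against 21.03, 22.4 and 19.3 TPM untreated. The Polycomb-related gene Sfmbt2, imprinted in the placenta, stood at 7.85, 6.69 and 6.68 TPM in SUZ12 cells with auxin, against 3.78, 3.84 and 3.88 TPM untreated (0.80 ± 0.11). In both genes the SUZ12 auxin libraries exceeded every other library. Phlda2, a placental growth inhibitor gene, was called at 0.51 ± 0.11, but not without untreated replicate 2 (adjusted p = 0.0555).

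WNT feedback genes, read in cells kept in a GSK3 inhibitor, had 5 of 23 tested called higher (21.7%) and 0 lower. Scaled by median of ratios, 3 were higher and 1 lower. Axin2, the common feedback inhibitor of the pathway, was called at 0.31 ± 0.05 (lost with length centring), with 0.21 ± 0.05 in untagged cells. BMP and NODAL response genes went both ways, 6 higher (30.0%) and 4 lower of 20 tested (5 and 5 with median-of-ratios scaling): Gsc, Msx2 and the Lefty genes were among the higher ones, and Id3, Bmp4 and the NODAL co-receptor gene Tdgf1 (-0.22 ± 0.05; lost in 1 of 6 fits without a library) among the lower.

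Of 24 tested p53 response genes 6 were called higher (25.0%) and 0 lower, but with median-of-ratios scaling 2 were higher and 3 lower. The CDK inhibitor gene Cdkn1a rose in both lines, to 183, 184 and 188 TPM in SUZ12 cells with auxin, against 151, 143 and 154 TPM untreated (0.31 ± 0.04). In untagged cells it rose to 194, 189.7 and 197 TPM with auxin, against 163, 165 and 162 TPM untreated (0.25 ± 0.04, adjusted p = 0.00179). The 26 proliferation genes gave 0 calls in limma at a median of 0.04, with 7 at an unadjusted p under 0.05; limma voom called 1 higher and 3 lower, and median-of-ratios scaling 0 higher and 4 lower. Cyp1a1, the main target of the aryl hydrocarbon receptor, which binds many indoles, showed the largest rise of the genes named here in SUZ12 cells (2.09 ± 0.29), from 61 reads with auxin and 8 untreated. In untagged cells it had 1.76, 0.644 and 1.91 TPM with auxin, against 0.150, 0.142 and 0.146 TPM untreated (1.51 ± 0.29, adjusted p = 0.023), and the difference between the lines, 0.58 ± 0.41, did not pass (adjusted p = 0.65).

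Pluripotency genes moved by small amounts. Of 23 naive genes 6 were called higher (26.1%) and 2 lower (8.70%), but with median-of-ratios scaling 1 was higher and 6 lower, so the list's direction depended on the scaling. Klf4, a naive factor gene, had 241, 239 and 237 TPM in SUZ12 cells with auxin, against 206, 193 and 208 TPM untreated (0.24 ± 0.04; untagged -0.01 ± 0.04). The difference for Klf4, 0.25 ± 0.05, did not pass (adjusted p = 0.0696). Klf4 was higher in every SUZ12 auxin library, while Nr0b1, which encodes a nuclear receptor that binds OCT4 (-0.27 ± 0.04), and the threonine dehydrogenase gene Tdh (-0.18 ± 0.02) were lower. Nanog was called at 0.12 ± 0.04 and lost the call in 4 of 8 settings, median-of-ratios scaling among them, and in 6 of 6 fits without a library. General pluripotency genes gave 0 higher and 8 lower of 19 tested (42.1%, against 0.940% of all genes), with a median of -0.17 in SUZ12 cells and -0.11 in untagged cells. With median-of-ratios scaling 14 were lower, against 695 of all 15104 genes. In untagged cells 2 of the 19 were called lower, against 0.152% of all genes. In the MTF2 and JARID2 degron stem cells read below 4 and 4 were called lower, against 0.457% and 0.185%, with medians of -0.11 and -0.12. The difference test called 0 of the 19. Their median difference was 0.00, and 12 of 19 lay above 0, against 9762 of all 15104 genes. Pou5f1, which encodes OCT4, had 1518, 1599 and 1559 TPM in SUZ12 cells with auxin, against 1766, 1806 and 1783 TPM untreated (-0.20 ± 0.03, adjusted p = 0.000168). In untagged cells Pou5f1 had 1619, 1686 and 1696 TPM with auxin, against 1681, 1772 and 1744 TPM untreated (-0.06 ± 0.03). Its SUZ12 groups did not overlap while the untagged ones did, but the difference of -0.14 ± 0.04 did not pass (adjusted p = 0.135). Utf1, a chromatin factor gene of pluripotent cells, fell to 322, 333 and 306 TPM in SUZ12 cells with auxin, against 489.8, 499 and 489.6 TPM untreated (-0.62 ± 0.04). In untagged cells it fell to 226, 238 and 240.5 TPM with auxin, against 388, 378 and 377 TPM untreated (-0.70 ± 0.04). The lines differed by 0.08 ± 0.06 (adjusted p = 0.678).

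Feedback genes of ERK signalling gave 4 lower calls and 0 higher of 22 tested in SUZ12 cells (18.2%, against 0.940% of all genes). In untagged cells 2 of the 22 were lower, in MTF2 cells 2 and in JARID2 cells 3, against 0.152%, 0.457% and 0.185% of all genes. The median was -0.16 in SUZ12 cells and -0.15 in untagged cells. Above 0 lay 45.5% and 9.09% of the list, against 71.0% and 56.9% of all genes. The difference test called 0 of the 22, at a median difference of 0.14. With median-of-ratios scaling or length centring 7 were called lower in SUZ12 cells, and in voom 8. The inhibitor gene Spry4 had 2.76, 2.12 and 2.00 TPM in SUZ12 cells with auxin, against 4.69, 4.89 and 4.67 TPM untreated (-0.92 ± 0.14). In untagged cells Spry4 had 1.10, 1.28 and 1.67 TPM with auxin, against 3.55, 3.63 and 3.65 TPM untreated (-1.16 ± 0.14). Etv4, an ETS factor gene downstream of FGF, changed by -0.72 ± 0.09 in SUZ12 cells and -0.51 ± 0.09 in untagged cells (adjusted p = 0.00734). Both were lower in every auxin library of both lines. The BMP target Id3 likewise changed by -0.49 ± 0.06 and -0.55 ± 0.06, whereas Id1, another BMP target gene, was called in untagged cells alone (-0.77 ± 0.15) and had overlapping SUZ12 groups (0.03 ± 0.15). The difference for Id1, 0.81 ± 0.21, did not pass (adjusted p = 0.123). Other genes with large falls in SUZ12 cells were the thyrotropin-releasing hormone gene Trh (-0.60 ± 0.06; untagged -0.47 ± 0.06, called), the pyruvate dehydrogenase kinase gene Pdk1 (-0.71 ± 0.11; untagged -0.39 ± 0.11, adjusted p = 0.26) and the zinc transporter gene Slc39a14 (-0.66 ± 0.12; untagged -0.62 ± 0.12, called). Apom, an apolipoprotein gene, had 17.2, 11.2 and 13.9 TPM in SUZ12 cells with auxin, against 26.9, 27.999 and 21.1 TPM untreated (-0.83 ± 0.19; called in 4 of 6 fits without a library), and -0.08 ± 0.19 in untagged cells. The difference for Apom, -0.76 ± 0.27, did not pass (adjusted p = 0.281), and Pdk1 was not called in the difference test.

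Large rises were also seen in genes outside the lists. Prkcdbp, the caveolar protein gene also called Cavin3, had 14.4, 11.9 and 12.7 TPM in SUZ12 cells with auxin, against 3.95, 5.80 and 6.47 TPM untreated (1.21 ± 0.20, adjusted p = 0.000983; untagged -0.04 ± 0.20). The difference test did not call Prkcdbp. Nsg1, a neuronal endosome protein gene, stood at 2.84, 2.80 and 2.74 TPM with auxin in SUZ12 cells, against 0.908, 0.606 and 1.08 TPM untreated (1.29 ± 0.29; adjusted p = 0.0656 without untreated replicate 2). Susd3, a sushi domain protein gene, changed by 1.33 ± 0.28, from 35 and 14 reads. That the SUZ12 groups did not overlap was a condition for naming these genes among the largest rises. The pepsinogen gene Pga5 (1.33 ± 0.31) and the proenkephalin gene Penk (1.13 ± 0.27) were called, but in 4 and 3 of 6 fits without a library, and Penk was not called in the compared groups alone.

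**Figure D3:**
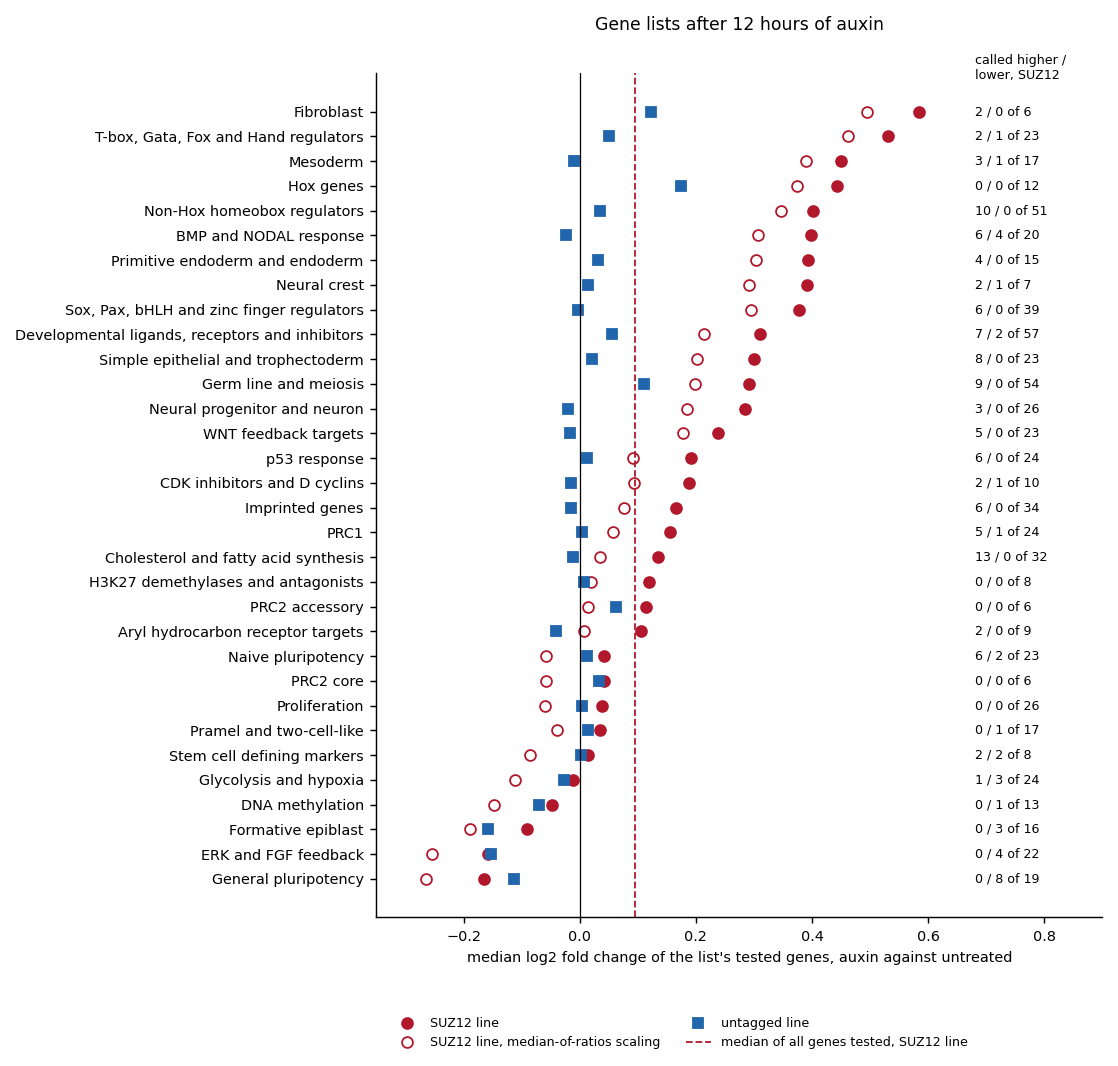
Median log2 fold change with auxin (x axis) of the tested genes of each list in SUZ12 cells (filled red circles), in SUZ12 cells with median-of-ratios scaling (open red circles) and in untagged cells (blue squares), with calls in SUZ12 cells at the right. Developmental lists lie right of the dashed line, the median of all genes in SUZ12 cells (0.09), while the ERK and general pluripotency lists lie left of 0 in both lines.

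The genes called in SUZ12 cells were then read in libraries not used for these calls, though all stem cell libraries shared 1 fit. In MTF2 degron stem cells auxin acts on an accessory subunit of PRC2, and 164 genes were called (1.09%), 95 of them higher. Of the 889 genes called higher 56 were called higher there too, 6.30% of the 889 and 58.9% of the 95, against 0.629% of all genes. Their median change there was 0.11, against 0.02 for all genes. With median-of-ratios scaling 32 of 415 were shared (7.71%, against 0.563% of all genes), and in voom 59 of 1669 (3.54%, against 0.569%). Among the genes described above, Dsp changed by 0.58 ± 0.12 in MTF2 cells (adjusted p = 0.0204), Sfrp1 by 0.38 ± 0.06 (adjusted p = 0.00251) and Zfp703 by 0.87 ± 0.15 (adjusted p = 0.00489). Sh3bgrl2, at 0.08 ± 0.10, and Gsc, at 0.40 ± 0.15, did not pass there. JARID2 degron stem cells, where auxin acts on another accessory subunit, had 45 calls (0.298%), 17 of them higher. Of the 889 genes 14 were called higher there (1.57% of the 889 and 82.4% of the 17), against 0.113% of all genes. With median-of-ratios scaling 9 of 415 were shared (2.17%, against 0.0993% of all genes), and in voom 13 of 1669 (0.779%, against 0.0927%). In untagged cells 7 were called higher (0.787% of the 889 and 77.8% of the 9 there), against 0.0596% of all genes. Of the 142 genes called lower, 35 were called lower in MTF2 cells (24.6%, against 0.457%), 15 in JARID2 cells (10.6%, against 0.185%) and 19 in untagged cells (13.4%, against 0.152%). These were 50.7% of the 69 genes lower in MTF2 cells, 53.6% of the 28 in JARID2 cells and 82.6% of the 23 in untagged cells.

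**Figure D4:**
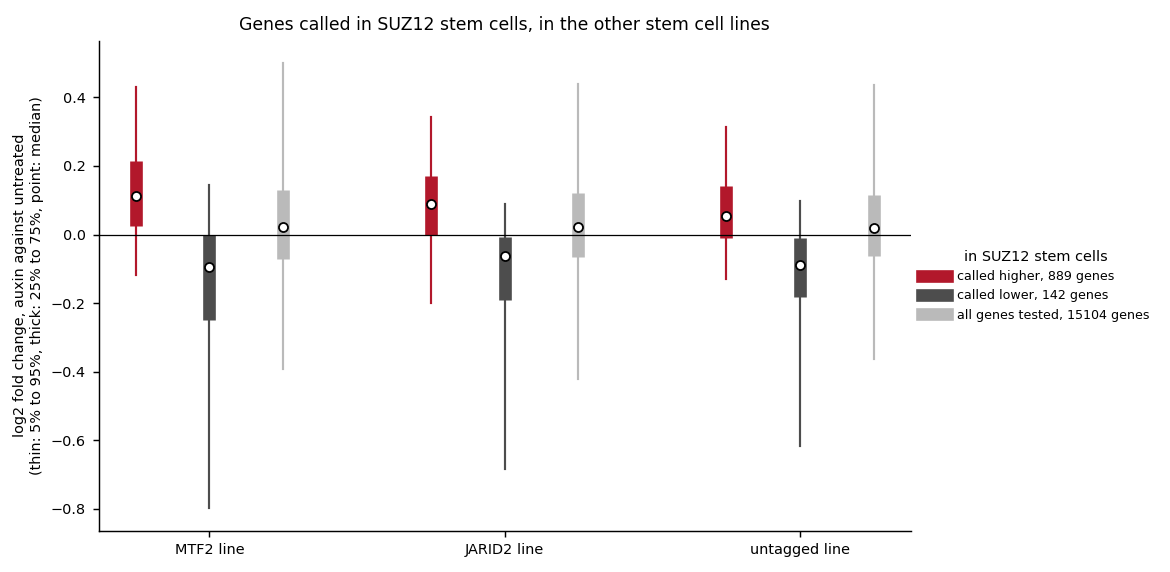
Change with auxin (y axis, log2 fold change) in MTF2, JARID2 and untagged stem cells of the 889 genes called higher and the 142 called lower in SUZ12 cells, beside all 15104 genes tested (points, medians; thick and thin lines, 25% to 75% and 5% to 95%). The genes called higher have medians of 0.11, 0.09 and 0.06 in the MTF2, JARID2 and untagged lines and those called lower -0.10, -0.06 and -0.09.

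In neural progenitor cultures of the SUZ12 line, kept in auxin through 5 days of differentiation, 9368 of 16469 genes were called (56.9%) and 876 of the 889 could be tested. Of these 302 were higher (34.5%, against 23.9% of all genes) and 359 lower (41.0%, against 33.0%), with a median of -0.06 against -0.10 for all genes. Direction after 12 hours in stem cells was thus not the direction in these cultures for much of the set. Dazl (4.33 ± 0.28), Gsc (2.34 ± 0.49) and Krt18 (2.44 ± 0.12) were higher in both, whereas Sfrp1 (-3.05 ± 0.06), Dpysl5 (-2.31 ± 0.07) and the neural gene Nefl (-3.43 ± 0.07) were lower in the neural cultures. Of the 142 genes called lower in stem cells, 134 could be tested in neural cultures and 86 were higher there (64.2%), among them Pou5f1 (5.36 ± 0.12) and Utf1 (4.95 ± 0.24). Times differ between these comparisons, and neural cultures with auxin had 2 libraries.

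Across all genes, the change in SUZ12 cells went with gene length and level. In 5 equal groups of genes by length, from short to long (median exon length 1.11 to 8.11 kb), the median change was 0.00, 0.05, 0.09, 0.13 and 0.16, and 32, 104, 163, 268 and 322 genes were called higher. Those called lower numbered 39, 34, 31, 27 and 11. The share called higher was 1.06% in the shortest group and 10.7% in the longest, and the share called lower 1.29% and 0.364%. Untagged medians were 0.01 to 0.02 in every group. Spearman's rho of change against length over the 15104 genes was 0.247 in SUZ12 cells, 0.0398 in MTF2 cells, 0.117 in JARID2 cells and -0.0121 in untagged cells, across genes of the same libraries and not over replicates. By level in untagged untreated cells, the median change was 0.18, 0.21, 0.15, 0.07 and 0.01 from the lowest of 5 equal groups (median 0.80 TPM) to the highest (121 TPM). Of the 142 genes called lower, 91 were in the highest group, 3.01% of its genes against 0.940% of all genes. Of those called higher 128 were in it, 4.24% of its genes against 5.89% of all genes.

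**Figure D5:**
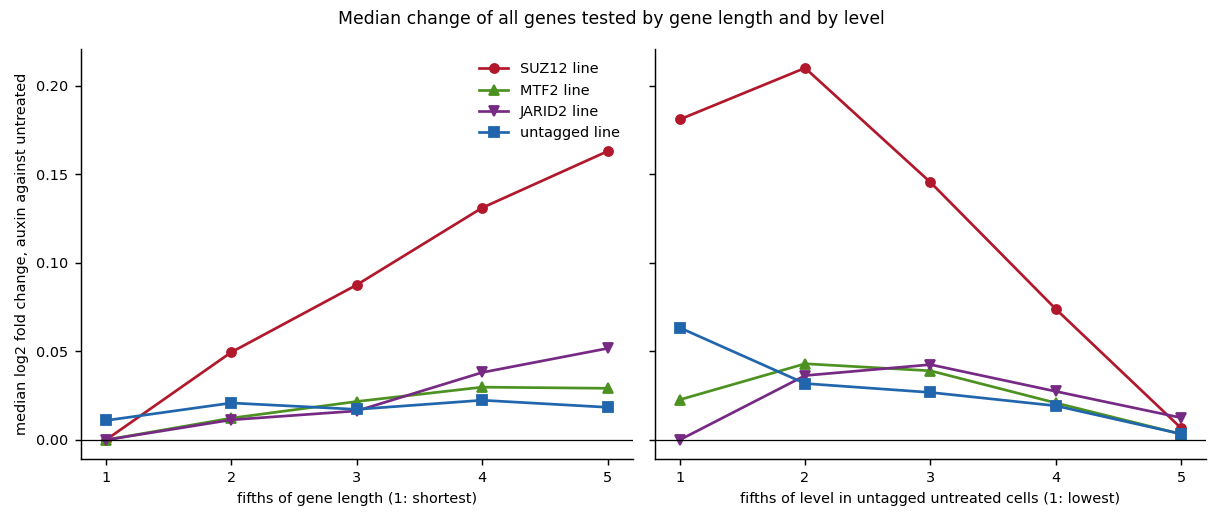
Median log2 fold change with auxin (y axes) of all genes tested, in 5 equal groups by gene length (left) and by level in untagged untreated cells (right), for SUZ12, MTF2, JARID2 and untagged stem cells. The SUZ12 median goes up with length, to 0.16, and is 0.21 in the second-lowest group by level and 0.01 in the highest, while medians in the other lines do not exceed 0.06.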

How the data were processed

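PolyA+ strand-specific RNA libraries were aligned by the authors with STAR 2.6.1d to mm10, per the submitters' processing notes. Their counting tool and gene set are not given here. The deposited table gives TPM, scaled by the authors to the same total in each library, for 47 libraries. Within each gene and library TPM came in whole steps, and whole reads were recovered for 27296 of 27296 genes above 0 (100%, within 0.001 of a whole number). limma 3.58.1 in R 4.3.3 was fitted to log2(TPM + 0.5) over the 24 stem cell libraries in 8 groups, with a mean-variance trend and robust moderation, for genes with at least 1 TPM in at least 2 libraries. Genes were called at a two-sided Benjamini-Hochberg adjusted p under 0.05. Neural libraries, 23, were fitted alike. The script was tested on simulated data.

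The authors describe the replicates as biological; p-values measure the spread between these samples, in 1 line per genotype. Replicate numbers were not used as pairs. Named genes were those called in the difference test or in untagged cells, the 15 largest rises and 15 largest falls whose SUZ12 groups did not overlap, up to 4 called genes per list with the smallest p, and PRC2 genes. Some genes are not reported here. Groups, members and lists were chosen with earlier results of these data known, so list counts describe and support nothing. Alternatives were limma voom on recovered reads, median-of-ratios scaling, pseudocounts of 0.1 and 1, leaving the filter out, the compared groups alone, a replicate block, leaving out each library and, chosen after seeing the data, centring in 20 length bins.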

Additional observations from a re-analysis of the deposited data

Results flagged for a closer look

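In 29 genes the change with auxin differed between SUZ12 and untagged stem cells in limma (two-sided, Benjamini-Hochberg adjusted p under 0.05 over 15104 genes), and 28 of them are given here. The values are log2 differences, the SUZ12 change minus the untagged change. The 2 negative differences were Pramel6 (-1.98) and Eif4ebp1 (-0.17). The highest positive ones were Rilpl2 (1.31), Rassf8 (1.19), Islr2 (1.13), Sh3bgrl2 (0.91), Tgfb1 (0.83), Tbc1d16 (0.81), Dpysl5 (0.77) and Dmrt1 (0.77). Next came Bag3 (0.71), Rassf3 (0.68), Ubtd2 (0.66), Pcolce2 (0.60), Ppp2r2c (0.59), Notch2 (0.57), Lamb1 (0.54), Gpc1 (0.51), Ngfr (0.49), Sfrp1 (0.48) and Bcor (0.47). The lowest were Tagln2 (0.45), Aacs (0.39), Gfpt2 (0.36), Pcsk6 (0.33), Dusp9 (0.31), Insig1 (0.30) and Dhcr7 (0.28). In all 27 genes with a positive difference the 3 SUZ12 auxin libraries lay above the 3 untreated ones, and in 20 of them the untagged change was below 0. The genes were chosen by these same values. Over all genes tested 26.9% had the SUZ12 auxin libraries all above, and 56.9% lay above 0 in untagged cells. All 29 kept their sign in the 20 alternatives run. Without untreated SUZ12 replicate 2, which stands furthest from its group, 0 were called.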

How the results depend on the processing

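Calls in SUZ12 cells numbered 993 and 1077 with pseudocounts of 0.1 and 1, 798 with no filter and 895 in the 2 SUZ12 groups alone, against 1031 as reported, and 2184 in limma voom; leaving out 1 library gave 351 to 734. Untagged calls, 32 as reported, were 57 in voom and 18 to 24 with 1 library left out. The difference test, 29 as reported, gave 185 in voom, 12 in the compared groups alone, 18 with length centring and 0 to 21 with 1 library left out. Of the genes higher in SUZ12 stem cells, fewer in number with median-of-ratios scaling, 32 of 415 were then also higher in MTF2 cells (7.71%, against 6.30% as reported), 9 of 415 in JARID2 cells (2.17%, against 1.57%) and 171 of 406 in neural cultures (42.1%, against 34.5%). The shares of all genes higher there moved too, to 0.563%, 0.0993% and 30.5%, against 0.629%, 0.113% and 23.9% as reported. In voom the shared genes were 59 of 1669 (3.54%), 13 of 1669 (0.779%) and 628 of 1628 (38.6%). The shares of all genes in voom were 0.569%, 0.0927% and 33.2%. With length centring Fasn turned to -0.021 and Rbbp4 to -0.13; the cause was not tested. Replicate numbers did not pair the samples (same-number correlations of -0.02 to 0.03, and 3 of 6 auxin libraries closest to their own number): a replicate block gave 1071 calls in SUZ12 cells, 31 in untagged cells and 30 in the difference test. Depth of 5.27 to 8.71 M reads left genes near 1 TPM on few reads, and small changes there were not detectable.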
